A study of Danio rerio with 6 samples.

Results

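Müller glia (MG) of injured zebrafish retinas that had received a morpholino against apobec2a and apobec2b were set against MG of uninjured retinas, which asks what the injury response looks like when Apobec2 is targeted. The comparison covers named protein-coding genes, that is symbols of the table that are neither clone names nor short or other non-coding RNAs. Of 27152 symbols, 18640 were of this kind, and 13338 of them reached 1 FPKM in 2 or more of the 4 libraries and were tested. FPKM counts fragments per kilobase of transcript relative to the size of the library. The other 5302 were left out, 20 of them with a second-highest value of 0.99 FPKM, while 28 genes were just inside at 1.00 FPKM.

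RNAseq was done on GFP+ cells purified by FACS from adult retinas, with 2 libraries per group. Knockdown MG came from retinas with a needle poke injury and the apobec2a/apobec2b morpholino, at 2 days post injury (dpi), and uninjured MG from retinas with neither. A further group, injured MG at 2 dpi without the apobec2 morpholino, is named in the table's columns for a control morpholino and serves below to show where the injured groups differ. The labels give gfap:GFP fish for all 6 libraries, a line in which a glial promoter drives GFP, whereas the paper's methods place injured cells in a 1016 tuba1a:GFP line, whose GFP marks injury-responsive MG and their progeny. Injury, morpholino delivery and a possible difference of line therefore cannot be told apart in this comparison. Each group has a library a and a library b, after the table's own index, and paired values keep that order. Nothing states that the libraries of a group came from separate fish, so p-values measure only the spread between these libraries, which may be technical.

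MG span the retina as radial glia, recycle glutamate, buffer ions and water, and hold the blood-retina barrier together. In zebrafish, injured MG take on a reactive state, re-express progenitor genes such as ascl1a and lin28a, divide and give rise to new neurons. Cytokines of the leptin and Il6 families, acting through Jak kinases and Stat3, and EGF family ligands are known drivers of that switch, while Notch and Tgfb signals hold MG quiescent. Apobec2 belongs to the family of cytidine deaminases and has been linked to this regeneration in the fish retina.

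The depth of the libraries is unknown, since FPKM does not hold it. Across the 13338 genes, which are not independent replicates, the libraries of a group had a Pearson correlation on the log2(FPKM + 1) scale of 0.987 for knockdown MG and 0.988 for uninjured MG.

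Groups were compared with limma on log2(FPKM + 1), with Benjamini-Hochberg adjustment over all 16423 symbols that passed the filter and a threshold of 0.05. Because of the added 1, log2 differences come out smaller than the true change where FPKM is low. With 2 libraries against 2, an exact permutation test of a single gene cannot go below p = 0.333, so the calls rest on the spread that limma shares across genes. Over all symbols, 22.9% were higher and 13.9% lower in knockdown MG.

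Of the 13338 genes, 5018 differed between the groups. In knockdown MG, 3235 genes (24.3%) were higher and 1783 (13.4%) lower than in uninjured MG. The difference was at least 2-fold for 1234 of those higher and 493 of those lower, and at least 16-fold on the log2 scale used for 22 higher and 1 lower. The median over all 13338 genes was 0.09 on the log2 scale and quantile normalization moved it to -0.03, with 2529 genes higher and 2459 lower, so the excess of higher over lower calls depends on the scaling. Leaving out 1 library lowered both counts, to 1219 higher and 688 lower without knockdown library a, 1471 and 819 without knockdown library b, 2033 and 824 without uninjured library a, and 1923 and 738 without uninjured library b. Of 121 genes called here and named in the text, 20 lost the call without 1 of the libraries, among them apoeb, cdk1, dock9a, dusp1, glula, hmgcra, hmgcrb, il1b, lgals9l1, mdm2, mmp14b, nr4a1, nrg1, six3a, tet3, tgfb1b, top2a and tp53inp1. Only 98 of the 121 could be fitted without each library in turn. The rest fell below the filter in at least 1 of these fits, so their calls were not fully checked. The her genes and cabp5a, given below, were not among the 121. Under the cut of the study's methods, at least a 2-fold difference of the group means and above 5 FPKM, which involves no test, 1124 genes were higher and 479 lower. A gene at 1 FPKM or more in both knockdown libraries and in no uninjured one passed the filter through the group in which it is high. This was so for 520 genes, of which 451 were called higher, and the reverse held for 228 genes, of which 174 were called lower. For such genes the direction of a call was favoured in advance, and the gene lists below hold some of them.

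The RNA of the targeted genes does not show whether the knockdown worked, since the sources used here do not state whether the morpholinos block translation or splicing. apobec2a was listed at 0.39 and 0.38 FPKM in knockdown MG, 0.25 and 0.51 FPKM in injured MG and 0.15 and 0.41 FPKM in uninjured MG, too low to be tested, and the groups overlap. A second row, APOBEC2 (2 of 2), lies on chromosome 23 from 19502021 to 19514259 in the table's coordinates, whose genome build is not stated. It shares 16 of its 30 nearest named neighbours with those of apobec2b in the RefSeq annotation of GRCz12tu and 0 with those of apobec2a. This row had 16.8 and 15.8 FPKM in knockdown MG, 8.60 and 8.19 FPKM in injured MG, and 1.12 and 0 FPKM in uninjured MG. The knockdown libraries were the highest of the 6, with a log2 difference of 3.57 ± 0.37 (standard error, limma adjusted p = 0.0037) from uninjured MG and 0.88 ± 0.10 (adjusted p = 0.016) from injured MG. Its listed locus overlaps that of other rows, so reads may be shared between them. The call of this row against injured MG was lost without any 1 library. The log2 difference was then 0.84 and 0.92 without knockdown library a and b, and 0.91 and 0.85 without injured library a and b.

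The sorted cells carried RNA of MG and of other retinal cells. Of 19 MG marker genes tested, 7 were higher, 7 lower and 5 not called. glula, glutamine synthetase of MG, had 750 and 783 FPKM in knockdown MG, against 1196 and 1280 FPKM in uninjured MG, and apoeb, the lipid carrier apolipoprotein E, had 942 and 926 FPKM in knockdown MG, against 571 and 631 FPKM in uninjured MG. rho, the rod opsin, stood above both, at 3351 and 3200 FPKM in knockdown MG and 7954 and 8087 FPKM in uninjured MG. In bulk RNA, fewer cells of a type and less RNA per cell cannot be told apart.

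Rod and cone genes were lower as groups. Of 23 rod genes tested, 20 were lower and 1 was higher, with a median log2 difference of -1.32, and their summed FPKM was 6879 and 6596 in knockdown MG against 17570 and 18300 in uninjured MG. sagb, a rod arrestin that shuts off rhodopsin, had 213 and 209 FPKM in knockdown MG, against 1245 and 1280 FPKM in uninjured MG. The exception was nr2e3, a nuclear receptor of rod precursors, with 27.9 and 29.5 FPKM in knockdown MG and 13.2 and 13.7 FPKM in uninjured MG (log2 difference 1.04 ± 0.10, limma adjusted p = 0.0033). Of 26 cone genes, 17 were lower and 0 higher, with a median of -0.84. In injured MG the summed cone genes stood near uninjured MG, at 6974 and 7412 FPKM against 6997 and 6834 FPKM. This holds for the sum and not for each gene. The log2 difference between injured and uninjured MG was -1.487 for one cone gene and 0.485 for another, with a list median of -0.09. Knockdown MG had 4449 and 3511 FPKM. Against injured MG, 12 of the 26 were lower and 0 higher (median -0.82), beside 5.94% lower over all genes tested there. Among the rod genes, 1 was lower than in injured MG and 0 higher (median 0.04). The cone opsin with the largest fall was opn1sw1, the ultraviolet opsin, at 240 and 203 FPKM in knockdown MG against 1402 and 1377 FPKM in uninjured MG. opn1mw3, a green opsin, had 157 and 123 FPKM in knockdown MG and 95.4 and 51.7 FPKM in uninjured MG and was not called.

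**Figure D1:**
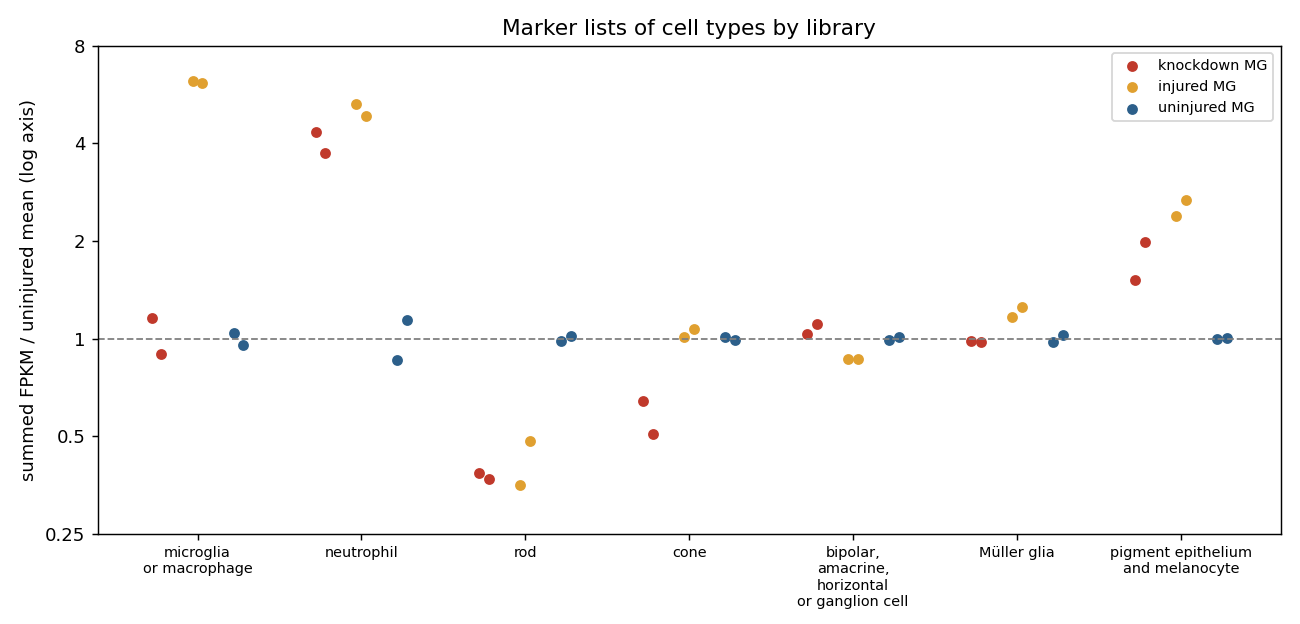
Summed FPKM of marker gene lists in each library, divided by the mean of the 2 uninjured libraries (log axis, dashed line at 1), with libraries a and b of each group as points, knockdown left, injured middle and uninjured right. Rod genes lie below 1 in both knockdown libraries, at a sum of 6879 and 6596 FPKM against 17570 and 18300 FPKM in uninjured MG, and microglia genes lie near 1 in knockdown MG and at 963 and 954 FPKM, far above it, in injured MG. The microglia sum includes cd74a and cd74b, which were lower in knockdown than in uninjured MG.

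The markers of immune cells also set the knockdown libraries apart from the injured ones. The summed FPKM of 28 microglia and macrophage genes was 179 and 139 in knockdown MG, 963 and 954 in injured MG and 161 and 148 in uninjured MG. Of the 24 that were tested, 14 were higher than in uninjured MG, 2 lower and 8 not called (median log2 difference 0.84). In the fit of knockdown against injured MG, where 2.95% of 13558 named protein-coding genes were higher and 5.94% lower in knockdown MG, all 24 were lower in knockdown MG (median -2.77). That fit had 400 genes higher and 806 lower, and it leans on every library, with 38 and 228 genes without knockdown library a, 12 and 155 without knockdown library b, 9 and 72 without injured library a and 2 and 17 without injured library b. Of 46 genes named here or below for which it gives a call, 1, havcr1, was still called without each library in turn. A pseudocount of 0.1 ended the call against injured MG for C7 (1 of 2), RPS27L, apoeb, ccng1, cdkn1a, dnmt1, f3a, il1b, isg15, kdr, krt18, mmp2, slc6a9, srebf1 and timp2b, and quantile normalization for apoeb and dnmt1. The 46 genes include the row APOBEC2 (2 of 2) given above and leave out the her genes, ccnb1 and cdc20 given below. For each count against injured MG below, the shares over all genes are the same 2.95% higher and 5.94% lower. havcr1 had 4.44 and 3.69 FPKM in knockdown MG, 57.2 and 63.0 FPKM in injured MG and 0.82 and 1.08 FPKM in uninjured MG. mpeg1, a pore-forming protein of macrophages, had 4.06 and 2.46 FPKM in knockdown MG, 40.4 and 47.0 FPKM in injured MG and 2.97 and 1.57 FPKM in uninjured MG. The defining markers were thus low in knockdown MG but not absent. The pair cd74a and cd74b, whose product carries antigen-presenting MHC class II molecules, were the 2 genes of the list that were lower. cd74a had 5.43 and 2.35 FPKM in knockdown MG, 36.3 and 60.1 FPKM in injured MG and 40.3 and 38.63 FPKM in uninjured MG. For cd74b the values were 1.69 and 1.60 FPKM, 11.5 and 14.92 FPKM, and 21.65 and 15.89 FPKM. The list sums near those of uninjured MG thus hold the fall of this pair beside the 14 genes that were higher. Pigment genes of the retinal pigment epithelium and of melanocytes were higher in knockdown than in uninjured MG, with 6 of 9 tested called higher and 1 lower, led by tyrp1b, a melanin synthesis protein, at 8.69 and 11.4 FPKM in knockdown MG against 0.46 FPKM in each uninjured library. Over all genes, 24.3% were higher and 13.4% lower than in uninjured MG. Some pigment genes, such as tyrp1b, passed the filter through the knockdown libraries alone, which favoured this direction in advance. Another 8 of the 17 pigment genes listed were too low to be tested. The list summed to 115.5 and 151.7 FPKM in knockdown MG and 181.8 and 204.1 FPKM in injured MG. Against injured MG, 4 of 8 tested were lower and 0 higher (median -0.71). The part of these cells in the differences of other genes was not tested.

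The 15 genes that rose most included a complement component, cytokines, proteases and transcription factors. The leading gene was C7 (1 of 2), a complement component of the membrane attack complex, with 717 FPKM in each knockdown library, 442 and 468 FPKM in injured MG and 4.39 and 3.69 FPKM in uninjured MG. That is a 177-fold ratio of the means in FPKM and a log2 difference of 7.16 ± 0.12 (standard error, limma adjusted p = 0.00041). Its listed locus overlaps other rows. f3a, tissue factor, which starts blood clotting, had 99.9 and 82.0 FPKM in knockdown MG, against 0.82 and 1.89 FPKM in uninjured MG. TNFRSF11B, the decoy receptor osteoprotegerin, had 50.9 and 49.96 FPKM in knockdown MG, against 0.31 and 0.30 FPKM in uninjured MG, and its locus is listed as one long span shared with many rows.

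Transcription factors made up much of the rest of the 15 leading genes. mych, a Myc family factor, had 91.6 and 87.5 FPKM in knockdown MG, against 2.03 and 1.51 FPKM in uninjured MG (log2 difference 5.04 ± 0.13). cebpb, a factor of inflammatory gene control, had 58.2 and 60.0 FPKM in knockdown MG, against 2.06 and 1.22 FPKM in uninjured MG. nr1d4b, a nuclear receptor of the Rev-erb family that acts in the circadian clock, had 48.0 and 43.1 FPKM in knockdown MG, against 0.68 and 0.90 FPKM in uninjured MG. By the rule that chose them, the knockdown and uninjured libraries do not overlap for any of the 15 genes, which also include the cytokines, AP-1 factors and proteases described next.

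**Figure D2:**
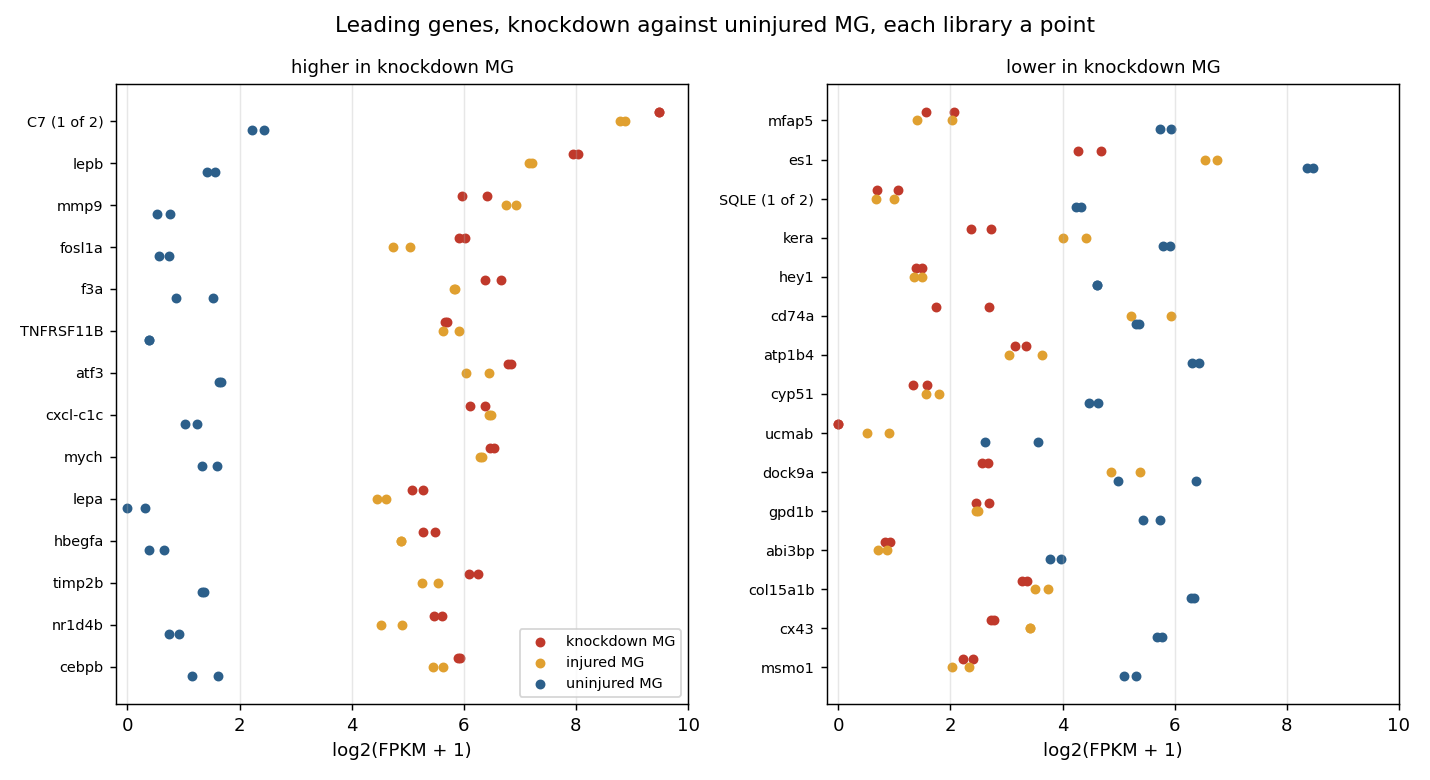
Level of the reported genes among the 15 with the largest positive (left panel) and the 15 with the largest negative difference (right panel) between knockdown and uninjured MG, as log2(FPKM + 1), with libraries a and b of knockdown, injured and uninjured MG as points. For C7 (1 of 2), at 717 FPKM in each knockdown library, and the other genes of the left panel the knockdown points lie right of the uninjured ones, while for es1 and kera of the right panel the injured points lie between those of knockdown and uninjured MG.

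Leptin and Il6-type cytokine genes rose together with their signalling chain. Of 21 genes of this list in the table, 17 were tested. Of these 15 were higher, 0 lower and 2 not called, with a median log2 difference of 2.41 against 0.09 over all genes. Some of them, such as lepa and crlf1a, passed the filter through the knockdown libraries alone, which favoured this direction in advance. Among the ligands, lepb had 261 and 245 FPKM in knockdown MG, 142 and 148 FPKM in injured MG and 1.96 and 1.67 FPKM in uninjured MG (log2 difference from uninjured MG 6.50 ± 0.11, limma adjusted p = 0.00041). lepb was also higher than in injured MG, by 0.80 ± 0.10 (adjusted p = 0.020). lepa, the second leptin gene, had 37.6 and 32.6 FPKM in knockdown MG, against 0.24 and 0 FPKM in uninjured MG. il11a and il11b, interleukin 11 genes, had 3.70 and 4.58 FPKM and 5.60 and 5.51 FPKM in knockdown MG, with il11a listed at 0 in both uninjured libraries. crlf1a and CLCF1, whose products form a composite cytokine, both rose. crlf1a had 28.8 and 27.4 FPKM in knockdown MG, against 0.73 and 0.83 FPKM in uninjured MG.

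Some receptors and transducers of these cytokines rose too. The receptor genes il6r, il11ra and osmr were too low to be tested. lepr, the leptin receptor, had 7.51 and 7.40 FPKM in knockdown MG, 4.0 and 4.55 FPKM in injured MG and 0.77 and 0.43 FPKM in uninjured MG. Its level was higher than in injured MG (log2 difference 0.68 ± 0.11, limma adjusted p = 0.033). il6st, the shared signalling receptor gp130, had 24.6 and 23.4 FPKM in knockdown MG, against 6.17 and 5.95 FPKM in uninjured MG. stat3, the transcription factor at the end of this chain, had 42.7 and 48.4 FPKM in knockdown MG, against 4.02 and 4.39 FPKM in uninjured MG (log2 difference 3.16 ± 0.12). The kinase gene jak1 rose by 2.1 ± 0.12, whereas jak2a and jak2b were not called, at 7.66 and 7.14 FPKM and at 7.18 and 7.52 FPKM in knockdown MG. The feedback inhibitors socs3a and socs3b, targets of Stat3, had 84.4 and 75.8 FPKM and 46.4 and 43.3 FPKM in knockdown MG, against 5.50 and 3.59 FPKM and 1.80 and 1.90 FPKM in uninjured MG. Against injured MG, 4 genes of the list were higher and 0 lower.

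AP-1 and immediate early genes are among the first genes that cells switch on after stress or growth signals. Of 17 tested, 13 were higher, 2 lower and 2 not called (median log2 difference 1.07), beside 24.3% higher and 13.4% lower over all genes. fosl1a, a Fos family partner of Jun, had 64.2 and 59.6 FPKM in knockdown MG, 25.7 and 31.9 FPKM in injured MG and 0.67 and 0.47 FPKM in uninjured MG. It was higher in knockdown than in injured MG by 1.08 ± 0.14 (limma adjusted p = 0.020). atf3, a stress-induced factor that pairs with Jun, had 114 and 110.2 FPKM in knockdown MG, against 2.1 and 2.19 FPKM in uninjured MG. jun itself had 232 and 225 FPKM in knockdown MG, 219 and 212 FPKM in injured MG and 11.4 and 11.6 FPKM in uninjured MG. The 2 lower calls are near the share over all genes. nr4a1, an orphan nuclear receptor, had 3.1 and 2.62 FPKM in knockdown MG, against 5.80 and 6.90 FPKM in uninjured MG, and dusp1, a phosphatase of MAP kinases, had 132 and 138 FPKM in knockdown MG, against 193 and 205 FPKM in uninjured MG. Both were lower past the threshold.

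Reprogramming and progenitor regulators were higher for 18 of 29 tested, lower for 4 and not called for 7 (median 0.76). ascl1a, a proneural factor that MG need for regeneration, had 25.4 and 21.5 FPKM in knockdown MG, 22.9 and 27.2 FPKM in injured MG and 0.24 and 1.13 FPKM in uninjured MG (log2 difference from uninjured MG 3.91 ± 0.28, limma adjusted p = 0.0018). lin28a, an RNA-binding protein that blocks let-7 microRNA, had 4.89 and 4.94 FPKM in knockdown MG, 4.72 and 13.1 FPKM in injured MG and 0 and 0.15 FPKM in uninjured MG. For both genes the knockdown and injured libraries did not differ past the threshold (adjusted p = 0.71 and 0.41), and the injured pair of lin28a is far apart. sox11b and mycb rose by 2.98 ± 0.12 and 2.14 ± 0.10. The 4 that were lower were six3a, pax6a, pax6b and rx2, transcription factors of eye development, with pax6a at 101 and 100.1 FPKM in knockdown MG against 210.0 and 208 FPKM in uninjured MG, and rx2 at 7.65 and 7.43 FPKM in knockdown MG against 21.6 and 22.1 FPKM in uninjured MG. sox2, which marks retinal stem cells and MG, rose by 1.17 ± 0.14.

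EGF family genes split by member. hbegfa, the ligand Hb-egf released by injured MG, had 43.8 and 37.5 FPKM in knockdown MG, against 0.31 and 0.57 FPKM in uninjured MG (log2 difference 4.86 ± 0.15). Its paralog hbegfb was the only list member that differed from injured MG, with 1.21 and 1.43 FPKM in knockdown MG, 6.27 and 3.98 FPKM in injured MG and 0.05 and 0.18 FPKM in uninjured MG. nrg1, neuregulin, was lower at 6.66 and 6.82 FPKM in knockdown MG against 12.2 and 10.2 FPKM in uninjured MG, and egfra, the EGF receptor, was not called at 7.05 and 10.7 FPKM in knockdown MG and 10.02 and 9.46 FPKM in uninjured MG. Of 11 genes in the table, 5 were tested, 2 of them higher, 1 lower and 2 not called. That is too few to set against the 24.3% higher and 13.4% lower over all genes. The 2 that were higher, hbegfa and hbegfb, passed the filter through the knockdown libraries alone.

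Among 16 Tgfb ligands, receptors and Smads tested, 3 were higher, 4 lower and 9 not called (median -0.05). Over all genes, 24.3% were higher and 13.4% lower. tgfb3 had 13.3 and 16.2 FPKM in knockdown MG, 16.4 and 18.5 FPKM in injured MG and 75.1 and 78.9 FPKM in uninjured MG. It was lower than in uninjured MG by a log2 difference of -2.31 ± 0.13 (limma adjusted p = 0.0014), while the difference from injured MG was -0.23 ± 0.14 (adjusted p = 0.34). tgfb2 had 11.5 and 14.2 FPKM in knockdown MG, against 2.84 and 2.47 FPKM in uninjured MG. tgfb1b had 1.05 and 1.00 FPKM in knockdown MG, 4.36 and 4.84 FPKM in injured MG and 0.42 FPKM in each uninjured library. Its knockdown values lay between those of the other groups, above uninjured MG by 0.51 ± 0.10 (adjusted p = 0.018) and below injured MG by -1.47 ± 0.11 (adjusted p = 0.0057). tgfb1b passed the filter through the knockdown libraries alone, which favoured a call above uninjured MG in advance. That call was lost under quantile normalization (adjusted p = 0.086). The smads for the Tgfb signal, smad2, smad3a, smad3b and smad4, were not called.

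Notch genes went both ways, with 6 of 21 tested higher, 6 lower and 9 not called. The shares over all genes were 24.3% higher and 13.4% lower. The Notch median of 0.09 became -0.03 under quantile normalization. The ligands dla and dlc rose by 1.09 ± 0.10 and 1.07 ± 0.10, with dla at 1.80 and 1.86 FPKM in knockdown MG against 0.28 and 0.38 FPKM in uninjured MG. Some of the Notch genes called higher, such as dla, passed the filter through the knockdown libraries alone, which favoured this direction in advance. Among the targets, hey1 had 1.62 and 1.80 FPKM in knockdown MG, 1.54 and 1.80 FPKM in injured MG and 23.4 and 23.5 FPKM in uninjured MG (log2 difference from uninjured MG -3.18 ± 0.10, limma adjusted p = 0.00066). Of the her genes on this list, her4.2 and her9 were higher, her12 and her15.1 lower, and her4.1, her6 and her15.2 not called. her4.2 had 7.63 and 7.93 FPKM in knockdown MG, against 3.86 and 4.54 FPKM in uninjured MG. her12 had 2.34 and 1.79 FPKM in knockdown MG, against 10.6 and 8.32 FPKM in uninjured MG. lfng, a glycosyltransferase that tunes Notch, had 16.8 and 19.5 FPKM in knockdown MG, against 68.0 and 67.2 FPKM in uninjured MG. dll4, a Notch ligand of vessels, and notch3, a receptor of pericytes and MG, were lower too.

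The genes for copying DNA were above uninjured MG and below injured MG. Of 43 DNA replication genes, 40 were tested, 30 were higher than in uninjured MG, 1 was lower and 9 were not called, with a median log2 difference of 0.97. Part of those called higher, such as mcm4, passed the filter through the knockdown libraries alone, which favoured this direction in advance. Against injured MG, 21 of the 40 were lower and 0 higher, with a median of -0.75. Beside this, 5.94% were lower and 2.95% higher over all genes tested there. pcna, the sliding clamp of DNA polymerases, had 60.8 and 51.8 FPKM in knockdown MG, 110.2 and 123 FPKM in injured MG and 23.9 and 23.8 FPKM in uninjured MG. For mcm4, a subunit of the replicative helicase, the values were 8.83 and 7.87 FPKM in knockdown MG, 17.8 and 16.4 FPKM in injured MG and 0.24 and 0.53 FPKM in uninjured MG. rrm2, which makes deoxynucleotides, had 5.19 and 5.63 FPKM in knockdown MG, 15.5 and 18.2 FPKM in injured MG and 1.38 and 0.98 FPKM in uninjured MG. For each of these genes the 3 groups do not overlap, and the knockdown libraries lie between the others.

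Many of the mitotic genes tested had the same order at low levels. Of 36 mitotic spindle and chromosome segregation genes, 16 passed the filter, 10 of them higher than in uninjured MG, 0 lower and 6 not called. Several of those called higher passed the filter through the knockdown libraries alone, so the direction of this count was favoured in advance. An example is aurkb, at 2.12 and 1.59 FPKM in knockdown MG against 0.41 and 0.30 FPKM in uninjured MG. The other 20 genes were too low to be tested. Against injured MG 9 of the 16 were lower and 0 higher. cdk1, the mitotic kinase, is counted in the list of G1, S and G2/M regulators below. It had 1.36 and 2.07 FPKM in knockdown MG, 7.22 and 9.21 FPKM in injured MG and 0.54 and 0.28 FPKM in uninjured MG. top2a, the topoisomerase of dividing cells, had 1.13 and 1.16 FPKM in knockdown MG, 3.70 and 5.42 FPKM in injured MG and 0.66 and 0.46 FPKM in uninjured MG, and its call against uninjured MG was lost under quantile normalization. Among 19 regulators of G1, S and G2/M tested, 8 were higher, 2 lower and 9 not called, with ccnd1, cyclin D1 of G1, at 29.0 and 24.5 FPKM in knockdown MG against 2.47 and 3.92 FPKM in uninjured MG. The summed microglia markers move with the difference of mitotic genes between the injured groups, at 179 and 139 FPKM in knockdown MG against 963 and 954 FPKM in injured MG. Their part in that difference was not tested.

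Genes of the p53 response were higher than in uninjured MG, and a few were above injured MG. Of 31 p53 response and apoptosis genes tested, 23 were higher than in uninjured MG, 1 lower and 7 not called (median 0.96). Against injured MG 5 were higher and 1 lower, beside 2.95% higher and 5.94% lower over all genes tested there. RPS27L, a ribosomal protein paralog induced by p53 in mammals, had 145 and 107 FPKM in knockdown MG, 57.1 and 55.0 FPKM in injured MG and 7.99 and 5.64 FPKM in uninjured MG. cdkn1a, the Cdk inhibitor p21, had 35.0 and 33.4 FPKM in knockdown MG, 21.0 and 21.6 FPKM in injured MG and 1.81 and 1.52 FPKM in uninjured MG (log2 difference from uninjured MG 3.72 ± 0.11, limma adjusted p = 0.00060, and from injured MG 0.66 ± 0.10, adjusted p = 0.030). bbc3, the death gene Puma, had 11.7 and 12.7 FPKM in knockdown MG, 7.41 and 7.18 FPKM in injured MG and 2.08 and 2.61 FPKM in uninjured MG. ccng1, cyclin G1, and mcl1b, a survival gene, were the others that exceeded injured MG. mdm2, the ligase that removes p53, rose by 0.78 ± 0.12 over uninjured MG at 60.7 and 56.7 FPKM in knockdown MG, 31.3 and 40.1 FPKM in injured MG and 35.7 and 31.8 FPKM in uninjured MG, and its difference from injured MG missed the threshold (adjusted p = 0.059). tp53inp1, a p53 target of the stress response, was the gene that was lower than in uninjured MG. Uninjured MG had no morpholino, so in these differences the injury and the morpholino cannot be told apart.

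**Figure D3:**
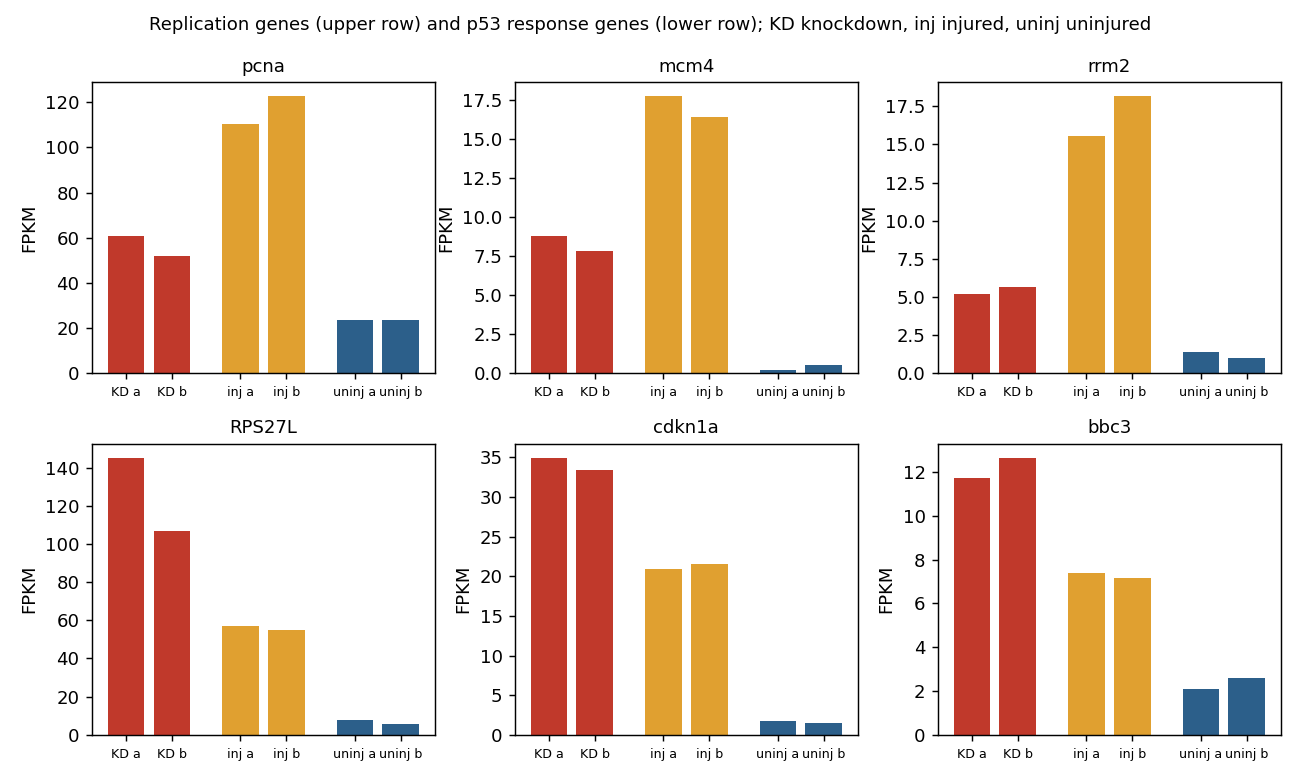
FPKM of 6 genes in each library (bars from 0, libraries a and b of knockdown, injured and uninjured MG from left to right). The replication genes pcna, mcm4 and rrm2 of the upper row are highest in injured MG, with pcna at 110.2 and 123 FPKM against 60.8 and 51.8 FPKM in knockdown MG, and the p53 targets RPS27L, cdkn1a and bbc3 of the lower row are highest in knockdown MG.

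Genes for making and folding proteins were higher almost throughout. Of 70 cytosolic ribosomal protein genes tested, 69 were higher, 0 lower and 1, rps8b, not called, with a median log2 difference of 1.54. Their summed FPKM was 34280 and 31200 in knockdown MG, 44530 and 46210 in injured MG and 11590 and 11290 in uninjured MG. The list was drawn by symbol and also holds RPS27L, given above with the p53 response. Copies of ribosomal protein genes elsewhere in the genome can share reads. Ribosome biogenesis genes were higher for 39 of 46, lower for 0 and not called for 7 (median 0.97), led by npm1a, nucleophosmin of the nucleolus, at 117 and 103 FPKM in knockdown MG against 17.1 and 15.9 FPKM in uninjured MG. Heat shock and chaperone genes were higher for 34 of 41, lower for 0 and not called for 7 (median 1.26). hsp70l, an inducible Hsp70, had 34.3 and 23.4 FPKM in knockdown MG, against 1.45 and 1.41 FPKM in uninjured MG. hspa5, the chaperone BiP of the endoplasmic reticulum, had 128 and 123 FPKM in knockdown MG, 114 and 128 FPKM in injured MG and 18.5 and 16.2 FPKM in uninjured MG. The median of the ribosomal protein genes was 1.29 under quantile normalization.

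Matrix proteases and their inhibitors were higher for 9 of 10 tested, lower for 0 and not called for 1, mmp2 (median 2.34). As mmp9 and mmp13a show, some passed the filter through the knockdown libraries alone, which favoured this direction in advance. mmp9, a gelatinase, had 84.6 and 61.4 FPKM in knockdown MG, 122 and 107 FPKM in injured MG and 0.70 and 0.44 FPKM in uninjured MG (log2 difference from uninjured MG 5.55 ± 0.19, limma adjusted p = 0.00077). mmp13a, a collagenase, had 13.2 and 12.04 FPKM in knockdown MG, against 0 and 0.03 FPKM in uninjured MG. timp2b, an inhibitor of these proteases, had 75.3 and 67.1 FPKM in knockdown MG, 45.3 and 36.9 FPKM in injured MG and 1.58 and 1.51 FPKM in uninjured MG. It was above injured MG by 0.78 ± 0.15 (adjusted p = 0.045), and mmp14b, a membrane-bound protease, was below it by -1.13 ± 0.16 (adjusted p = 0.025). Of 21 adhesion and matrix genes tested, 12 were higher, 4 lower and 5 not called. ctgfa, a matricellular growth factor, had 45.5 and 38.7 FPKM in knockdown MG, against 2.61 and 1.37 FPKM in uninjured MG, and itgb1b, an integrin subunit, had 10.7 and 8.44 FPKM in knockdown MG, against 0.73 and 1.04 FPKM in uninjured MG. tnr, tenascin R of the neural matrix, was lower at 9.79 and 7.07 FPKM in knockdown MG against 21.9 and 27.4 FPKM in uninjured MG.

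Intermediate filament and tubulin genes were higher for 17 of 25 tested, lower for 1 and not called for 7 (median 1.18). gfap, the filament that marks reactive glia and whose promoter drives GFP in the labelled line, had 49.8 and 46.7 FPKM in knockdown MG, 68.4 and 66.7 FPKM in injured MG and 22.4 and 24.7 FPKM in uninjured MG (log2 difference from uninjured MG 1.01 ± 0.11, limma adjusted p = 0.0043). tuba8l, an alpha tubulin, had 51.2 and 48.6 FPKM in knockdown MG, 86.0 and 89.6 FPKM in injured MG and 3.01 and 3.44 FPKM in uninjured MG. krt18, a keratin of simple epithelia, had 27.5 and 28.5 FPKM in knockdown MG, 16.7 and 18.3 FPKM in injured MG and 2.16 and 1.31 FPKM in uninjured MG. krt18 was above injured MG past the threshold, whereas tuba8l was below it.

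Immune genes mostly rose. Chemokine, interleukin and Tnf family genes were higher for 18 of 26 tested, lower for 1 and not called for 7 (median 0.82). cxcl-c1c, a chemokine, had 81.9 and 67.9 FPKM in knockdown MG, 88.6 and 86.2 FPKM in injured MG and 1.36 and 1.05 FPKM in uninjured MG. il1b, interleukin 1 beta, had 1.74 and 1.11 FPKM in knockdown MG, 4.34 and 7.76 FPKM in injured MG and 0.58 and 0.23 FPKM in uninjured MG, a call against uninjured MG that was lost under quantile normalization and a smaller pseudocount. ptgs2b, a prostaglandin synthase, was the member furthest above injured MG, with 97.3 and 104 FPKM in knockdown MG, 25.8 and 16.4 FPKM in injured MG and 42.7 and 48.0 FPKM in uninjured MG. Interferon response and antigen presentation genes were higher for 13 of 22 tested, lower for 3 and not called for 6. isg15, an interferon-induced ubiquitin-like protein, had 31.7 and 24.1 FPKM in knockdown MG, 13.1 and 11.4 FPKM in injured MG and 3.33 and 1.78 FPKM in uninjured MG. Of 22 annexin, S100 and galectin genes tested, 12 were higher, 1 lower and 9 not called, and against injured MG 10 were lower and 0 higher. lgals9l1, a galectin, had 11.6 and 7.52 FPKM in knockdown MG, 103 and 138 FPKM in injured MG and 3.62 and 2.03 FPKM in uninjured MG. The galectins that fell short of injured MG did so beside the microglia markers given above, and the part of those cells was not tested.

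Genes of the working MG were divided. Of 32 homeostatic genes tested, 9 were higher, 13 lower and 10 not called, and the median of 0.03 was -0.11 under quantile normalization. The shares over all genes were 24.3% higher and 13.4% lower. cx43, the gap junction protein of glial networks, had 5.85 and 5.63 FPKM in knockdown MG, 9.66 and 9.75 FPKM in injured MG and 50.2 and 53.8 FPKM in uninjured MG (log2 difference from uninjured MG -2.97 ± 0.10, limma adjusted p = 0.00077). slc6a9, a glycine transporter, slc1a2b, a glutamate transporter, aqp1a.1, a water channel, and rlbp1a, the retinal binding protein of the visual cycle, were lower by 1.85 to 1.99 on the log2 scale. rlbp1a had 86.1 and 92.5 FPKM in knockdown MG, against 357 and 350.4 FPKM in uninjured MG. fabp7a, a fatty acid binding protein of radial glia, went up, with 860 and 812 FPKM in knockdown MG against 170 and 184 FPKM in uninjured MG. glula was lower than in uninjured MG by -0.69 ± 0.11 but above injured MG, at 466 and 463 FPKM there, by 0.72 ± 0.10 (adjusted p = 0.023).

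Genes of sugar use and lactate export rose more often than they fell, and so did genes over all. Of 26 glycolysis and lactate genes tested, 14 were higher, 6 lower and 6 not called, beside 24.3% higher and 13.4% lower over all genes. The list median log2 difference of 0.56 was 0.32 under quantile normalization. Against injured MG 8 were higher and 1 lower, beside 2.95% higher and 5.94% lower over all genes tested there. slc16a3, a lactate exporter, had 192 and 231 FPKM in knockdown MG, 64.3 and 52.7 FPKM in injured MG and 39.2 and 44.9 FPKM in uninjured MG. It was above injured MG by a log2 difference of 1.84 ± 0.16 (limma adjusted p = 0.0087). hk1, a hexokinase, had 168 and 181 FPKM in knockdown MG, 68.6 and 65.6 FPKM in injured MG and 63.0 and 64.7 FPKM in uninjured MG. pfkfb3, which raises the rate of glycolysis, had 296 and 305 FPKM in knockdown MG, 138 and 151 FPKM in injured MG and 104 and 111 FPKM in uninjured MG. In each of these 3 genes the injured libraries lie nearer to the uninjured ones than to those of the knockdown. slc2a1a, a glucose transporter, was lower, with 38.1 and 36.3 FPKM in knockdown MG against 133 and 148 FPKM in uninjured MG.

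Cholesterol synthesis genes were lower at nearly every step. Of 24 genes tested, 20 were lower, 1 was higher and 3 were not called, with a median log2 difference of -1.33 against 0.09 over all genes. Early in the pathway, hmgcs1, which acts just before the rate-limiting reductase, had 7.03 and 7.87 FPKM in knockdown MG, 8.63 and 10.7 FPKM in injured MG and 37.5 and 59.3 FPKM in uninjured MG. SQLE (1 of 2), squalene epoxidase, had 1.1 and 0.62 FPKM in knockdown MG, 1.00 and 0.60 FPKM in injured MG and 19 and 18 FPKM in uninjured MG (log2 difference from uninjured MG -3.40 ± 0.16, limma adjusted p = 0.0010). Further on, cyp51 and msmo1, which remove methyl groups from lanosterol, had 1.51 and 1.98 FPKM and 4.30 and 3.66 FPKM in knockdown MG, against 21.2 and 23.9 FPKM and 33.1 and 38.9 FPKM in uninjured MG. hmgcrb, one of 2 genes in the table for the rate-limiting reductase, was the gene that was higher, at 7.73 and 7.93 FPKM in knockdown MG against 5.39 and 4.48 FPKM in uninjured MG, while its paralog hmgcra was lower. Against injured MG 1 gene, srebf1, was higher and 0 were lower.

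**Figure D4:**
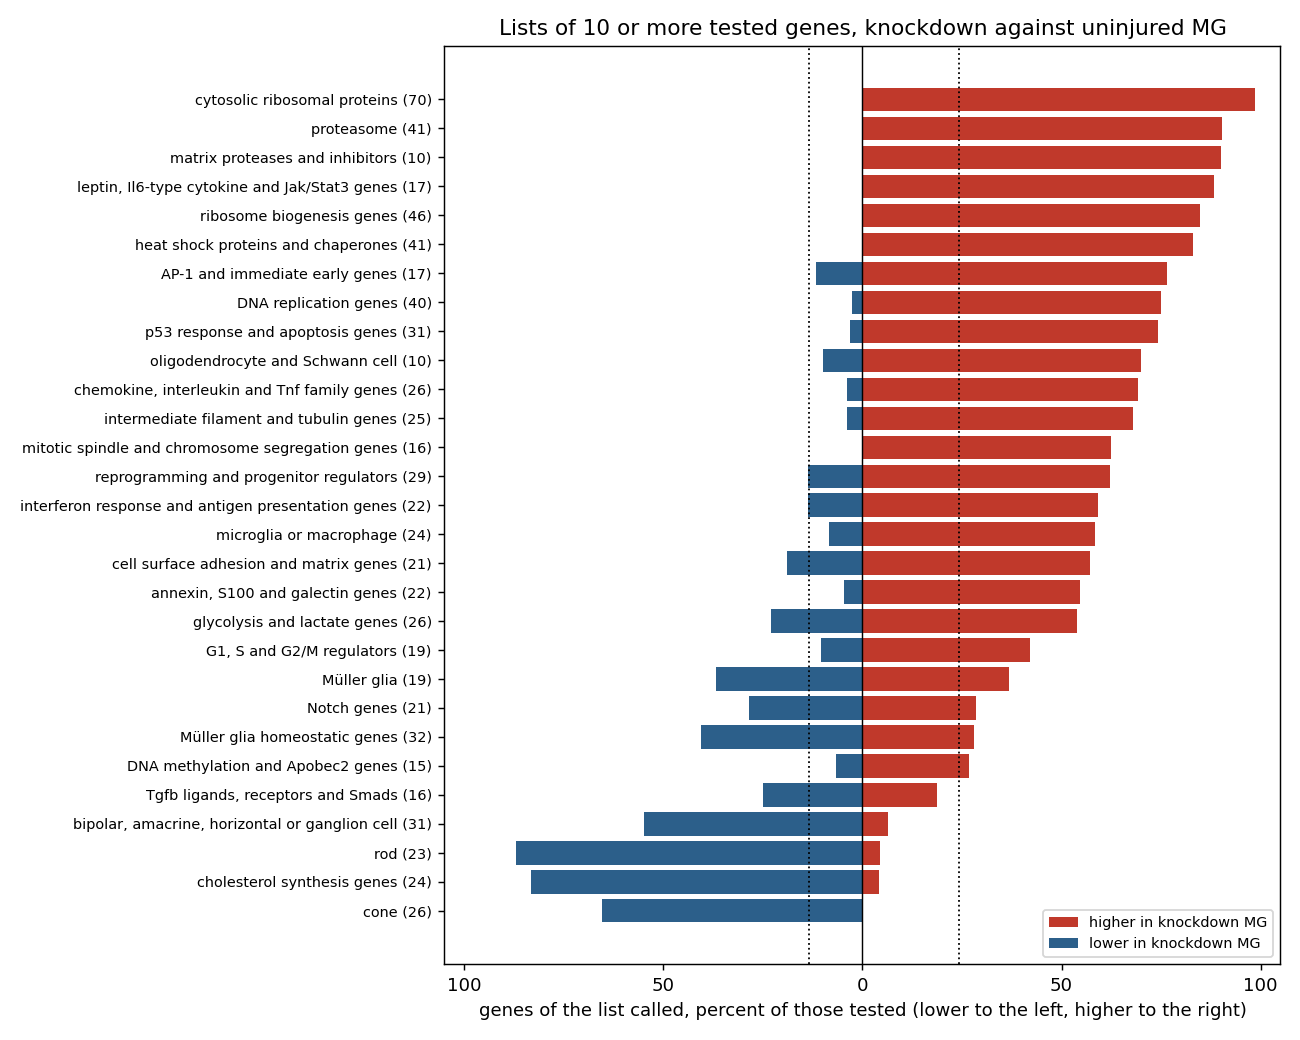
Share of the tested genes of each list that were called higher (right of 0) or lower (left of 0) in knockdown than in uninjured MG, in percent, with the number tested beside each list. Dotted lines mark the shares over all 13338 named protein-coding genes, 24.3% higher and 13.4% lower, and ribosomal proteins, matrix proteases and the leptin and Stat3 list lie far to the right while cholesterol, rod and cone genes lie to the left.

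The genes that fell most included matrix and stromal genes. mfap5, a microfibril protein, had 1.95 and 3.17 FPKM in knockdown MG, 3.08 and 1.66 FPKM in injured MG and 60.1 and 52.6 FPKM in uninjured MG (log2 difference from uninjured MG -4.03 ± 0.20, limma adjusted p = 0.0011). col15a1b, a basement membrane collagen, had 8.67 and 9.31 FPKM in knockdown MG, against 77.5 and 79.8 FPKM in uninjured MG, and abi3bp, a matrix protein, had 0.79 and 0.89 FPKM in knockdown MG, against 14.7 and 12.8 FPKM in uninjured MG. kera, keratocan of the corneal and scleral stroma, had 4.18 and 5.61 FPKM in knockdown MG, 15.11 and 20.3 FPKM in injured MG and 59.4 and 54.5 FPKM in uninjured MG. It was lower than in injured MG too, by -1.66 ± 0.20 (adjusted p = 0.017).

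The other genes among the 15 that fell most had varied roles. es1, a mitochondrial protein of zebrafish cones, had 24.9 and 18.4 FPKM in knockdown MG, 92.3 and 106 FPKM in injured MG and 353 and 327 FPKM in uninjured MG, and was lower than in injured MG by -2.16 ± 0.18 (limma adjusted p = 0.0080). gpd1b, a glycerol phosphate dehydrogenase, had 4.49 and 5.43 FPKM in knockdown MG, against 52.6 and 42.2 FPKM in uninjured MG, and atp1b4, of the sodium pump beta subunit family, had 7.93 and 9.20 FPKM in knockdown MG, against 85.0 and 78.8 FPKM in uninjured MG. ucmab, a matrix protein of cartilage, was listed at 0 in both knockdown libraries and at 5.12 and 10.8 FPKM in uninjured MG. dock9a, an activator of Cdc42, is the least certain of the 15. Its uninjured libraries stood at 30.8 and 82.0 FPKM, against 4.91 and 5.39 FPKM in knockdown MG.

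Genes of DNA methylation, a process that cytidine deaminases have been proposed to act in, were called about as often as genes overall. Of 15 tested, 4 were higher, 1 lower and 10 not called, beside 24.3% higher and 13.4% lower over all genes, with a median log2 difference of 0.15. dnmt4 had 4.91 and 3.67 FPKM in knockdown MG, against 1.04 and 0.66 FPKM in uninjured MG. tet3, which oxidizes methylcytosine, had 19.7 and 20.4 FPKM in knockdown MG, 11.5 and 10.3 FPKM in injured MG and 12.5 and 12.8 FPKM in uninjured MG, and was above both other groups past the threshold. dnmt1, the maintenance methyltransferase, was not called against uninjured MG, at 8.17 and 6.02 FPKM in knockdown MG and 4.97 and 5.88 FPKM in uninjured MG, and was below injured MG, at 15.18 and 12.9 FPKM there (log2 difference -0.90 ± 0.18, limma adjusted p = 0.049). The dnmt1 call against injured MG was lost with a pseudocount of 0.1 (adjusted p = 0.077) and under quantile normalization (adjusted p = 0.057).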

How the data were processed

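RNAseq was done on GFP+ cells of adult zebrafish retinas, with 2 libraries in each of 3 groups. The authors deposited 1 table of 92067 lines, in which 30689 gene rows are each listed 3 times, with FPKM per library as computed by their pipeline. A further 6 per-library columns, of a second measure, were not used, so depth is unknown. Columns with the authors' own group means, fold changes and p-values were not used either. The submitters' processing notes name CASAVA, TopHat and Bowtie2, without versions, and the genome build is not given in the sources used here. Rows of 1 symbol were summed, and 8080 clone-named and 404 short RNA symbols were not members. Of the members, 332 lie in merged rows and 11281 were found by symbol in the RefSeq table of GRCz12tu, used for names, biotype and neighbours only. Members not found there were counted as protein-coding without a biotype from it.

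Symbols that reached 1 FPKM in 2 or more of the 4 libraries compared were fitted as log2(FPKM + 1) with limma 3.58.1 in R 4.3.3, checked on simulated data, with Python 3.11.15, NumPy 2.4.6, pandas 2.3.3 and Matplotlib 3.10.9 for tables and plots. Adjusted p-values run over all symbols fitted. The same test compared knockdown with injured MG. Genes named are the 15 with the largest difference in each direction (adjusted p under 0.05, a mean above 5 FPKM, no overlap), the targets, and examples from gene lists. Some of these genes are not reported here. The members and lists were chosen with earlier results of these data known. Alternatives were a pseudocount of 0.1, other scalings, filters and variance settings, all 3 groups in 1 fit, the library index as a term and leaving out each library. With 2 libraries per group, precision is limited by their number.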

Additional observations from a re-analysis of the deposited data

How the results depend on the processing

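The counts of genes called between knockdown and uninjured MG stayed within 1.5 times under every other setting than leaving out a library, which gave 1219 to 2033 genes higher and 688 to 824 lower. Under the fold rule of the methods, lowering the FPKM minimum to 1 gave 1901 genes higher and 828 lower. Against injured MG, a pseudocount of 0.1 gave 220 genes higher, and leaving out a library gave 2 to 38 higher and 17 to 228 lower, so calls between the injured groups rest on all 4 libraries. These settings of the comparison with injured MG were chosen after seeing the data. No named gene that was checked changed direction with a call. Of 121 named genes called against uninjured MG, quantile normalization ended the call of 3. Where a library is left out, a gene expressed in 1 group only can fall below the filter and is then not fitted. No paired analysis was possible because the table's columns number the libraries of a group by an index that could not be tied to the replicate numbers in the labels. The table's own library index as a term gave 2889 genes higher and 1501 lower. With 2 libraries per group, small differences at low FPKM are not resolved.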

Other observations

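Proteasome genes, which encode the protease that degrades tagged proteins, were higher in knockdown than in uninjured MG for 37 of 41 tested, lower for 0 and not called for 4, with a median log2 difference of 0.88. psma5, a core subunit, had 64.9 and 59.0 FPKM in knockdown MG, against 24.0 and 26.8 FPKM in uninjured MG.

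Markers of vessels, blood, myelin and lens were also read. Of 7 endothelial and pericyte genes tested, 4 were higher and 3 lower. kdr, a VEGF receptor, had 25.6 and 23.5 FPKM in knockdown MG, against 6.24 and 5.93 FPKM in uninjured MG, whereas rgs5a, a pericyte gene, had 17.1 and 22.9 FPKM in knockdown MG, against 62.9 and 54.4 FPKM in uninjured MG. Of 3 erythrocyte genes tested, 2 were higher and 1 lower, and the summed FPKM of the list was 379.9 and 382.5 in knockdown MG, against 371.8 and 394.7 in uninjured MG. hbaa1, an alpha globin of red cells, had 127 and 129 FPKM in knockdown MG, against 41.3 and 49.6 FPKM in uninjured MG, and cahz, a carbonic anhydrase that is also on the MG list, had 140.3 and 141.7 FPKM in knockdown MG, against 289 and 286 FPKM in uninjured MG. Of 10 myelin and oligodendrocyte genes tested, 7 were higher and 1 lower, with mpz at 5.56 and 3.60 FPKM in knockdown MG against 0.58 and 1.22 FPKM in uninjured MG, and mbpa, myelin basic protein, at 12.9 and 12.4 FPKM in knockdown MG against 32.2 and 33.9 FPKM in uninjured MG. Of 5 lens and cornea genes tested, 0 were higher and 2 lower, among them cryba4, a crystallin, at 1.82 and 0.53 FPKM in knockdown MG against 15 and 8.3 FPKM in uninjured MG. Neutrophil markers summed to 36.9 and 31.6 FPKM in knockdown MG, against 7.29 and 9.66 FPKM in uninjured MG. That sum includes mmp13a, given above among the matrix proteases. Of the 8 markers 5 were tested, 3 of them higher, 0 lower and 2 not called. csf3r was too low to be tested, at 0.71 and 0.24 FPKM in knockdown MG against 0.46 and 0.31 FPKM in uninjured MG. Genes of bipolar, amacrine, horizontal and ganglion cells were lower for 17 of 31 tested, higher for 2 and not called for 12 (median -0.38). Their summed FPKM did not fall, at 5761 and 6187 in knockdown MG against 5521 and 5642 in uninjured MG. Much of that sum came from cabp5a, which was called higher. It had 3285 and 3670 FPKM in knockdown MG, against 2090 and 2036 FPKM in uninjured MG.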
